A study of Homo sapiens with 6 samples.

Results

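Tetraspanins are small membrane proteins that pass through the membrane repeatedly and hold other proteins beside them in patches of the plasma membrane and of endosomes. They bind integrins, adhesion molecules and membrane proteases, and several are the usual protein markers of extracellular vesicles. The 10 genes described here are CD82, CD9, CD63, CD81, CD151, TSPAN3, TSPAN4, TSPAN8, TSPAN13 and TSPAN14. They were picked by symbol from the 61806 genes of the deposited table, with results of the comparison already known. Each symbol matched 1 row. The human family has 33 genes, so 23 tetraspanins lay outside the choice.

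The RNA came from A549, a human lung adenocarcinoma line labelled as wild type, which had been seeded for 24 h and then treated for 24 h. One group of 3 libraries received DMSO, the solvent. The other 3 received Japoflavone B, a compound that the series title calls a PARP1 inhibitor, at a dose given as 40 without a unit, and their libraries carry the code LE-532. Whether the libraries of a group were separate cultures is not stated, so errors and p-values measure only the spread between these libraries.

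Depth ran from 15298531 to 21744407 gene counts per library, and the 10 genes together took 0.138% to 0.164% of them. Mitochondrial genes took 3.97% to 4.70% of counts after DMSO and 8.33% to 8.58% after Japoflavone B. Of 12 markers of lung epithelium, 6 averaged at least 1 FPKM (counts scaled by exon length and library total, as deposited). The summed level of the 12 was 1150 to 1319 FPKM after DMSO and 563 to 597 FPKM after Japoflavone B. Of the 8 that were tested, 0 were higher, 6 were lower (beside 35.4% of all tested genes) and 2 did not pass. The keratin gene KRT7 had the highest level of that list and was 1.33-fold lower. The keratin genes KRT18 and KRT8 were 3.32-fold and 2.85-fold lower. Of 10 fibroblast and endothelial markers, 2 averaged at least 1 FPKM, and these moved in opposite directions. ACTA2, a smooth muscle actin gene, went from 5.45 ± 0.0404 to 39.3 ± 2.84 FPKM, and the collagen gene COL1A1 from 4.64 ± 0.295 to 0.473 ± 0.0586 FPKM. The summed level of the 10 was 10.3 to 10.9 FPKM after DMSO and 36.7 to 41.8 after Japoflavone B. Of the 5 that were tested, 1 was higher (ACTA2), 2 were lower (COL1A1 and COL3A1) and 2 did not pass, and the endothelial genes VWF and KDR had 0 counts in all 6 libraries. The part of these differences in the results was not tested, and in such bulk RNA fewer cells of a type and less RNA per cell cannot be told apart. The alveolar genes SFTPB, SFTPC, SFTPA1 and NKX2-1 had at most 3 counts in any library. 

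A fit over the 16082 genes that passed a filter on low counts called 70.0% of them different between the groups (edgeR quasi-likelihood test, Benjamini-Hochberg adjusted p under 0.05), 34.7% higher and 35.4% lower after Japoflavone B. With so many genes called, a call by itself sets no gene apart.

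CD82 went from below 1 FPKM in every DMSO library to above 6 FPKM in every Japoflavone B library. CD82, also known as KAI1, restrains cell migration and is known as a metastasis suppressor. The gene (ENSG00000085117) lies on chromosome 11 from 44564427 to 44620358 on the plus strand (GRCh38). It had 47, 50 and 31 counts after DMSO and 517, 424 and 457 after Japoflavone B. In FPKM these were 0.56, 0.57 and 0.50 against 6.46, 6.67 and 6.14. The lowest treated library stood far above the highest DMSO library, and the 3 libraries of each group lay close together. The fitted log2 fold change was 3.65 ± 0.13 (SE), or 12.6-fold higher, and 112 of the 16082 tested genes had a larger one. On the log2(FPKM + 1) scale, whose pseudocount lowers the fold of a weakly expressed gene, it was 2.27, and on that of TPM + 1 it was 2.94. Since CD82 was chosen with this difference known, the values are given as a description.

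The stretch of DNA before the RefSeq start of CD82 is shown because this is the member with the largest difference. RefSeq places the start of the gene at position 44565663 (GRCh38.p14). The stretch lies inside the gene as deposited, which begins at 44564427. The bases below run from the beginning of the 250-base window before that start up to the first exon that GENCODE 29 annotates there, at chr11:44565413-44565590 on the plus strand, with the GC boxes (GGGCGG, searched on both strands, a letter pattern that SP1-type factors are known to bind) in capitals.
CD82: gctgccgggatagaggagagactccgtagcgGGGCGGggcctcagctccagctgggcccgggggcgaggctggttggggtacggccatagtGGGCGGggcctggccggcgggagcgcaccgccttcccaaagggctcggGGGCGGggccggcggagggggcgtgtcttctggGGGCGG
All 4 GC boxes of the window lie in this stretch, on the plus strand. At least 1 GC box was found in 42.6% of the 35116 RefSeq windows of 250 bases, and 4 or more in 7.63%. The CD82 window was 77.2% G or C, higher than 93.2% of all windows, whose median was 58.0%.

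No match was found in the CD82 window for the TATA box (TATAAA), the AP-1 site (TGANTCA), the cyclic AMP response element (TGACGTCA), an amino acid response element (TGATGCAA) or the EGR1 site (GCGTGGGCG), each searched on both strands. These motifs were present in 10.7%, 6.57%, 1.65%, 0.772% and 0.720% of all windows in that order. A start that GENCODE annotates further upstream, at the beginning of the deposited gene, is outside the window. Of the 10 genes, 7 had entries in the promoter table, with 24 windows in all. A GC box was found in 17 of those windows, beside 42.6% of all windows. Some windows of a gene overlap and share sequence, so they are not separate units and nothing is read from this count. The window of TSPAN13, the member that was lower, held 3 GC boxes.

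**Figure D1:**
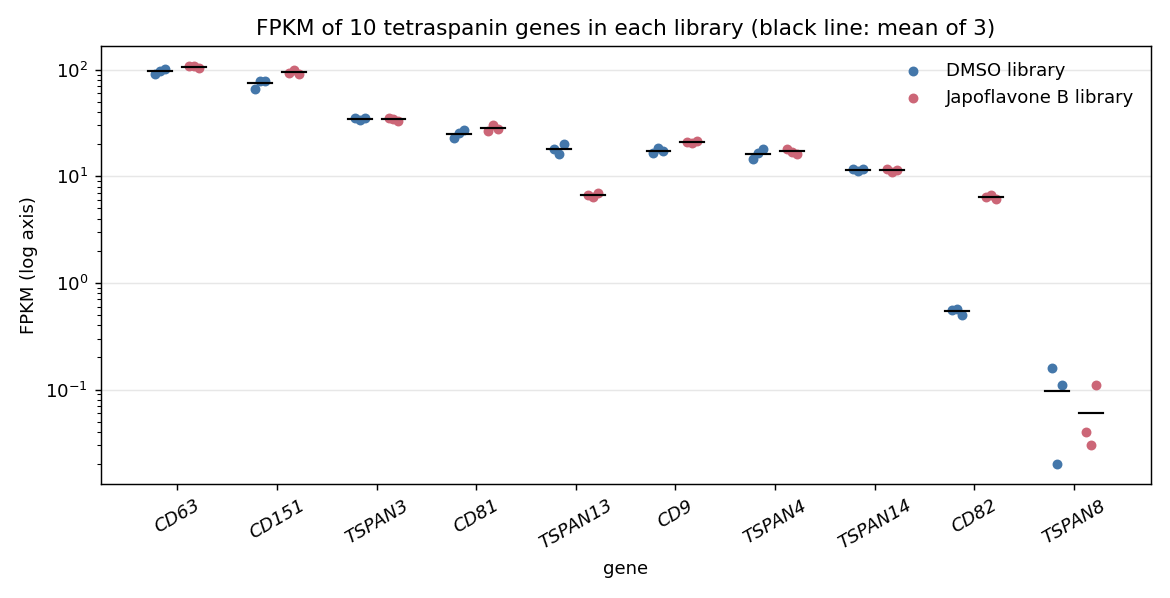
Each point is the FPKM of 1 library (log axis) for the 10 tetraspanin genes, ordered by their mean after DMSO, with DMSO in blue, Japoflavone B in red and the mean of 3 libraries as a black line. CD82 moves from 0.543 to 6.42 FPKM and TSPAN13 from 18.1 to 6.65, while the 7 genes from CD63 to TSPAN14 other than TSPAN13 stay near their DMSO level and TSPAN8 is barely counted.

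Among the other members, the vesicle markers CD63, CD81 and CD9 were slightly higher after Japoflavone B. CD63 cycles between late endosomes, lysosomes and the cell surface. It was the most abundant tetraspanin in every library, with 91.61, 97.98 and 102.15 FPKM after DMSO and 108.14, 108.69 and 102.92 after Japoflavone B. The groups did not overlap, but the highest DMSO library came within 1 FPKM of the lowest treated one, and the log2 fold change was 0.23 ± 0.05. As TPM (FPKM rescaled to a fixed total per library) it was 0.02 and was not called. CD81, a receptor of hepatitis C virus, had 22.94, 25.27 and 27.19 FPKM after DMSO and 26.84, 30.17 and 27.89 after Japoflavone B, so its groups overlapped. Its log2 fold change was 0.27 ± 0.06, and its call was lost in the 3 limma fits on FPKM or TPM. CD9, which acts in membrane fusion and adhesion, had 16.56, 18.41 and 17.39 FPKM after DMSO and 20.88, 20.60 and 21.37 after Japoflavone B. All 3 treated libraries were above all 3 DMSO libraries, with a log2 fold change of 0.37 ± 0.06.

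CD151, which binds laminin-binding integrins, was the second most abundant tetraspanin. It had 66.55, 78.23 and 79.16 FPKM after DMSO and 92.94, 99.30 and 90.58 after Japoflavone B. The groups were apart, with a log2 fold change of 0.44 ± 0.06, or 1.36-fold higher. TSPAN4, best known from migrasomes, the vesicles left on retraction fibres, had 14.41, 16.58 and 17.90 FPKM after DMSO and 18.04, 17.04 and 16.25 after Japoflavone B. Its groups overlapped, and its log2 fold change of 0.18 ± 0.07 was called in the fit over all libraries but in 9 of 17 alternatives was not called or turned negative. Without DMSO replicate 1 it was 0.10 and not called, and the call was also lost without DMSO replicate 2 or Japoflavone B replicate 1 or 2 (0.18, 0.15 and 0.18). DMSO replicate 1 was the lowest DMSO library for 5 of the 10 genes (CD9, CD63, CD81, CD151 and TSPAN4).

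TSPAN3 and TSPAN14 were the flattest members. TSPAN3 had 34.89, 34.00 and 35.11 FPKM after DMSO and 35.46, 34.60 and 33.01 after Japoflavone B. TSPAN14, a partner of the membrane protease ADAM10, had 11.64, 11.30 and 11.61 against 11.74, 10.91 and 11.54. Both log2 fold changes were 0.09 ± 0.05, and neither was called in the edgeR fit over all libraries. Both turned negative with library totals as the scaling (-0.01 each) and as TPM (-0.13 each). As TPM 2 members were called lower, TSPAN13 and another with a negative value there (TSPAN3, TSPAN14, or TSPAN4 at -0.04). For TSPAN3 and TSPAN14 the DMSO range lay inside the treated range.

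TSPAN13 was the member that was lower. Its gene (ENSG00000106537) lies on chromosome 7 from 16753755 to 16784536. It had 18.21, 16.16 and 19.96 FPKM after DMSO and 6.62, 6.37 and 6.96 after Japoflavone B. Every treated library was below every DMSO library, and the log2 fold change was -1.34 ± 0.10, or 2.53-fold lower.

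TSPAN8, a tetraspanin linked to the spread of gastrointestinal tumours, was scarcely detected. It had 8, 1 and 4 counts after DMSO and 2, 1 and 5 after Japoflavone B, did not pass the filter on low counts and was not tested. The ratio of summed counts per library total was 0.660 with an exact 95% binomial interval of 0.237 to 1.72, which covers counting error only. A difference was not detectable at this depth.

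In all, 9 of the 10 genes passed the filter, which asks for about 10 counts in 3 libraries. CD82 had 31 or more counts in every library and so did not pass through its treated libraries alone. Of the 9 genes, 6 were called higher (CD82, CD9, CD63, CD81, CD151 and TSPAN4) beside 34.7% of all tested genes, and 1 lower (TSPAN13) beside 35.4%. As TPM, where the median gene shifts by -0.21 log2, 3 were called higher and 2 lower. The groups did not overlap in FPKM for 5 of the 9 tested genes, beside 71.6% of all tested genes. The median log2 fold change of the 9 was 0.23, and that of all tested genes was 0.00. Because the genes were chosen on this comparison, nothing is read from these counts.

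The order of levels per length after DMSO was CD63, CD151, TSPAN3, CD81, TSPAN13, CD9, TSPAN4, TSPAN14, CD82 and TSPAN8, with means from 97.2 ± 5.31 FPKM for CD63 (SD, n = 3) down to 0.0967 ± 0.0709 for TSPAN8. TSPAN13, CD9 and TSPAN4 had overlapping ranges and cannot be ordered among themselves. After Japoflavone B the order was CD63, CD151, TSPAN3, CD81, CD9, TSPAN4, TSPAN14, TSPAN13, CD82 and TSPAN8. TSPAN13 at 6.65 ± 0.296 FPKM and CD82 at 6.42 ± 0.267 then overlapped, whereas after DMSO they had been 18.1 ± 1.9 and 0.543 ± 0.0379. FPKM divides by the length of all annotated exons, which is 2004 bases for TSPAN13 and 17790 for TSPAN14. TSPAN14 therefore ranked low per length although its 11846 summed DMSO counts were close to the 13566 of CD63.

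**Figure D2:**
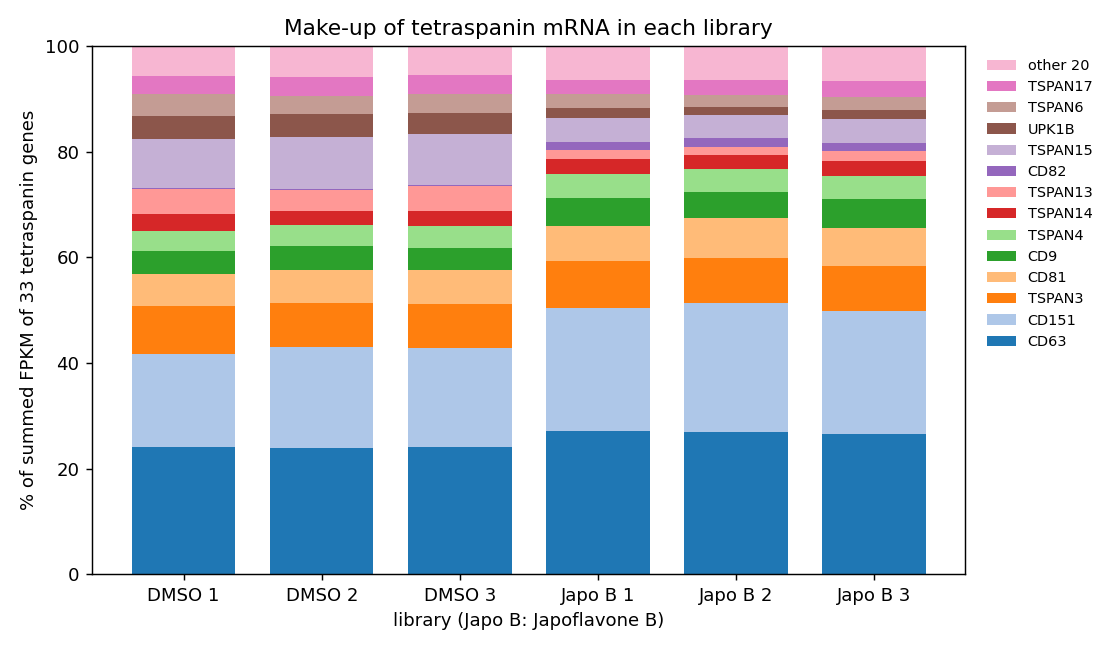
Each bar is 1 library and shows what percentage of the summed FPKM of all 33 tetraspanin genes each gene supplied, with 20 other genes pooled at the top. CD63 and CD151 supply the largest shares in every library, the CD82 band becomes visible in the Japoflavone B bars, and the TSPAN13 and TSPAN15 bands narrow there.

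The summed level of the 33 tetraspanins was 404 ± 21.9 FPKM after DMSO and 397 ± 8.62 FPKM after Japoflavone B (SD, n = 3), and the ranges overlapped. Within that sum the makeup differed, given here as description because the 10 were chosen with results of the comparison known. The 10 genes supplied 73.2% ± 0.361 of it after DMSO and 82.1% ± 0.473 after Japoflavone B, while the summed level of the other 23 went from 108 ± 5.51 to 71.4 ± 0.833 FPKM. CD82 supplied 0.135% ± 0.0154 and then 1.62% ± 0.0351. CD151 supplied 18.4% ± 0.833 and then 23.7% ± 0.666, and TSPAN13 4.49% ± 0.469 and then 1.67% ± 0.111. In rank by mean FPKM among the 33, CD82 stood 21st after DMSO and 13th after Japoflavone B, and TSPAN13 stood 6th and 12th.

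Tetraspanins outside the choice were tested in the same fit. Of 23, 16 passed the filter. Of these, 5 rose (beside 34.7% of all tested genes), 7 fell (beside 35.4%) and 4 did not pass the test. The median log2 fold change of the 16 was -0.03 beside 0.00 for all tested genes. Over the alternatives that median ran from -0.24 as TPM to 0.21 with no filter on low counts, and it was also above 0 without Japoflavone B replicate 1 or 2 (0.09 and 0.08). Among those with at least 1 FPKM, TSPAN15, another ADAM10 partner, had 35.25, 40.25 and 40.81 FPKM after DMSO and 17.77, 17.79 and 17.39 after Japoflavone B. It fell by 1.03 ± 0.07 on the log2 scale (edgeR adjusted p = 5.63e-14). UPK1B, a uroplakin that lines the bladder surface, had 16.45, 17.43 and 17.12 FPKM after DMSO and 7.38, 6.06 and 7.02 after Japoflavone B and fell 2.31-fold (adjusted p = 1.23e-12). TSPAN6, a regulator of endosomal sorting, fell from 15.3 ± 0.549 to 9.99 ± 0.777 FPKM (1.42-fold lower). TSPAN7 rose from 0.880 ± 0.0656 to 2.52 ± 0.342 FPKM (3.05-fold higher; adjusted p = 1.03e-08). No other tested tetraspanin had a log2 fold change as large in size as that of CD82. The largest fall among the others was that of CD37, at -2.08 ± 0.18, and the largest fitted rise that of UPK1A, at 1.97 ± 0.46. UPK1A had 4, 9 and 6 counts after DMSO and 34, 10 and 23 after Japoflavone B. It therefore passed the filter on low counts only through the group where it was high. ROM1, which fell, had 38, 40 and 11 counts after DMSO and 9, 10 and 8 after Japoflavone B. Its DMSO libraries carried it through the filter. The counts of tetraspanins that rose or fell include both genes, and nothing is read from them.

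CD37, a leukocyte tetraspanin, fell from 2.59 ± 0.409 to 0.580 ± 0.131 FPKM (4.23-fold lower; edgeR adjusted p = 6.24e-11). CD37 is itself 1 of 10 listed blood cell markers. Their summed level was 5.17 to 5.83 FPKM after DMSO and 0.880 to 1.37 after Japoflavone B. Most of it was CD37 itself and the monocyte gene CD14, so the sum is not independent of CD37. Only 3 of the 10 were tested, and all 3 were lower (beside 35.4% of all tested genes). Another myeloid gene of the list, ITGAM, had 117 summed counts after DMSO and 36 after Japoflavone B (2.81-fold lower; edgeR adjusted p = 3.84e-04), and LYZ had 1 and 8. Other markers had few counts or none. The pan-leukocyte gene PTPRC had at most 1 count in any library, CD3E, MS4A1 and HBB had 0 in all 6, and the leukocyte tetraspanin CD53 had at most 3.

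Some of the smaller differences depended on the processing or on single libraries. TSPAN31 had 0.27 ± 0.09 log2 (edgeR adjusted p = 0.00941), a call lost without DMSO replicate 1 (adjusted p = 0.066) and in the 4 fits scaled by library totals, FPKM or TPM. TSPAN9 and TSPAN33 did not pass (adjusted p = 0.0565 and 0.0528). TSPAN9 passed without DMSO replicate 2, and TSPAN33 without DMSO replicate 2 or 3 or Japoflavone B replicate 3 and with the size factors of DESeq2.

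**Figure D3:**
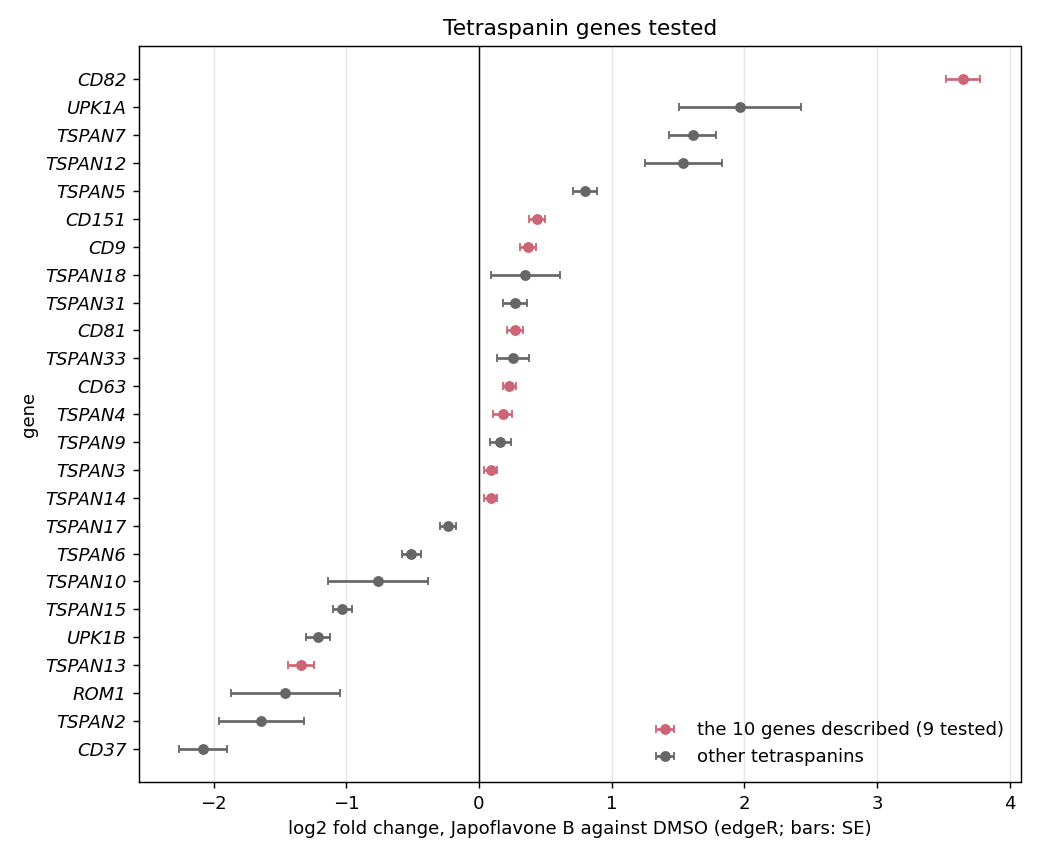
Points are log2 fold changes of the 25 tested tetraspanin genes, Japoflavone B against DMSO, with SE as bars; the 9 tested genes of the choice are red and the other 16 grey. CD82 stands alone on the right at 3.65, 7 of the other red points lie between 0.09 and 0.44, and TSPAN13 lies at -1.34 among the grey genes that fell.

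The tetraspanins that escort ADAM10 form the TspanC8 group, which has 6 members (TSPAN5, TSPAN10, TSPAN14, TSPAN15, TSPAN17 and TSPAN33). They carry this protease out of the endoplasmic reticulum and are known to steer it towards different substrates, Notch receptors among them. Beside the flat TSPAN14, of the other 5 genes TSPAN15 and TSPAN17 fell, TSPAN5 rose, and TSPAN10 and TSPAN33 did not pass. TSPAN17 went from 14.3 ± 0.846 to 11.3 ± 0.399 FPKM (log2 fold change -0.23 ± 0.06; edgeR adjusted p = 0.00243). TSPAN5 went from 2.56 ± 0.243 to 4.15 ± 0.419 FPKM (0.80 ± 0.09; adjusted p = 1.62e-08). The summed level of the group was 70.8 ± 4.39 FPKM after DMSO and 48.5 ± 0.529 after Japoflavone B. TSPAN15 supplied 54.7% ± 0.964 of it and then 36.4% ± 0.802, TSPAN14 16.3% ± 1.18 and then 23.5% ± 0.656, and TSPAN5 3.62% ± 0.306 and then 8.56% ± 0.778.

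ADAM10 itself fell. It had 24.14, 21.25 and 21.38 FPKM after DMSO and 9.72, 9.43 and 10.33 after Japoflavone B, with a log2 fold change of -1.08 ± 0.06 (edgeR adjusted p = 7.78e-16). The groups were far apart relative to their spread. The ADAM10 list holds sheddases, Notch receptors and ligands, and gamma-secretase. Of its 16 tested genes, 10 rose (beside 34.7% of all tested genes), 4 fell (beside 35.4%) and 2 did not pass. The list median was 0.23 log2. In the limma fits on FPKM 6 of the list rose and as TPM 5. The Notch ligand JAG1 rose from 13.3 ± 0.657 to 32.6 ± 2.00 FPKM (2.63-fold higher), and RHBDF1, which guides the related protease ADAM17, was 1.79-fold higher. NOTCH3 fell 1.44-fold (log2 fold change -0.53 ± 0.06) and the gamma-secretase subunit PSENEN 1.22-fold, and APH1A, another subunit, had 0.16 ± 0.05 log2, a call lost in the 4 fits scaled by library totals, FPKM or TPM. ADAM9, a related sheddase, had 0.02 ± 0.05 log2 (adjusted p = 0.725), which turned negative in those 4 fits (-0.19 as TPM, where it was called) and with a filter on mean FPKM (-0.03).

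**Figure D4:**
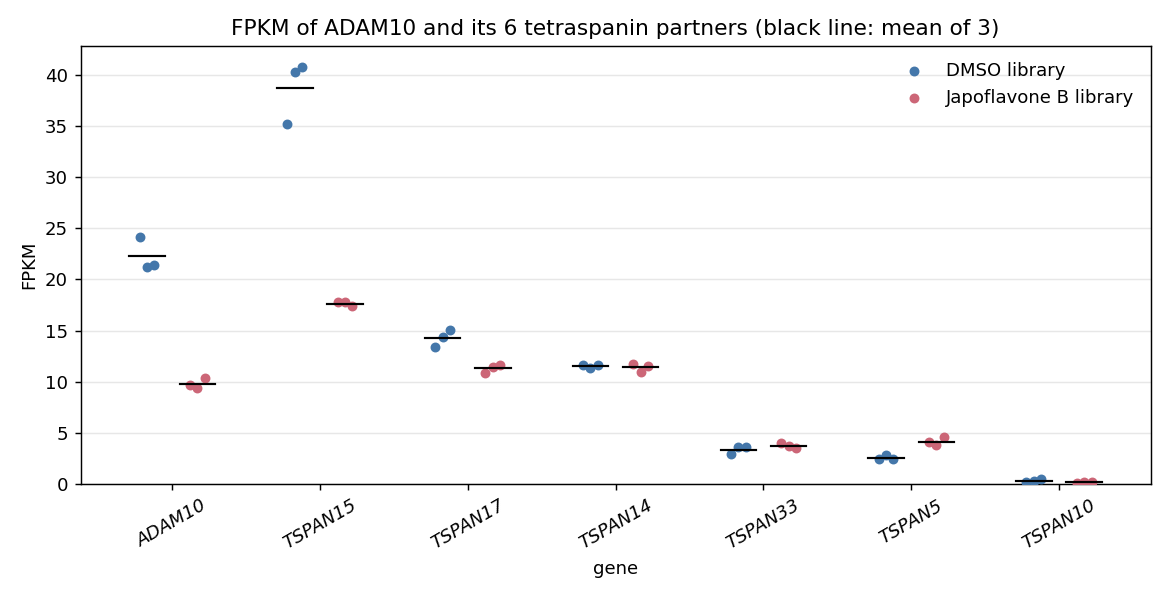
Points are FPKM per library on a linear axis from 0 for ADAM10 and the 6 TspanC8 tetraspanins, DMSO in blue and Japoflavone B in red, with the mean of 3 libraries as a black line. ADAM10 and TSPAN15 separate clearly and downwards, TSPAN5 upwards, and TSPAN14 stays at 11.5 and 11.4 FPKM.

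The next list holds genes of proteins that tetraspanins bind in the membrane, measured here as RNA. Of 22 tested genes, 13 rose (beside 34.7% of all tested genes), 6 fell (beside 35.4%) and 3 did not pass, with a median of 0.21 log2 beside 0.00 for all tested genes; as TPM the median was -0.01. ITGA3, the alpha subunit of a laminin-binding integrin and the best known partner of CD151, rose from 46.6 ± 1.11 to 254 ± 0.837 FPKM (5.85-fold higher; edgeR adjusted p = 2.85e-25). Its beta subunit ITGB1 was 1.19-fold higher, a call lost as TPM. The other laminin-binding subunits, ITGA6 and ITGB4, named after their values were seen, were 1.29-fold and 2.17-fold higher. ITGB5, a beta subunit of vitronectin receptors, was 2.85-fold lower (98.1 ± 4.77 against 32.1 ± 1.09 FPKM). ITGAV and ITGA4, the remaining listed integrin subunits, also named after their values were seen, were 1.5-fold and 2.29-fold lower. ITGA4 averaged 0.287 FPKM after DMSO. HBEGF, a growth factor whose membrane precursor associates with CD9, rose from 1.16 ± 0.179 to 10.2 ± 0.553 FPKM (9.47-fold higher; adjusted p = 6.57e-19). TIMP1, a secreted ligand of CD63, was 1.43-fold higher, and SLC3A2, the heavy chain of amino acid transporters found in tetraspanin complexes, 1.30-fold higher. The immunoglobulin-type partners of CD9 and CD81 split. PTGFRN was 1.78-fold lower (9.32 ± 0.402 against 4.89 ± 0.101 FPKM), while IGSF8 was 1.74-fold higher. IGSF3, another listed gene of this type, was 1.37-fold lower. IGSF8 and IGSF3 were named after their values were seen.

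Genes of vesicle formation gave mixed results. ESCRT is the machinery that buds vesicles into endosomes. Of 35 tested exosome and ESCRT genes, 19 rose (beside 34.7% of all tested genes), 8 fell (beside 35.4%) and 8 did not pass. The list median was 0.22 log2. As TPM 12 rose and 14 fell, and the median was 0.00. FLOT1, a membrane scaffold found in vesicles, rose from 38.9 ± 2.51 to 89.5 ± 3.98 FPKM (2.47-fold higher; edgeR adjusted p = 1.39e-17). The syndecan genes SDC4 and SDC1, cell surface proteoglycans, were 3.32-fold and 1.39-fold higher, and the ESCRT gene CHMP5 1.62-fold higher. SDCBP, the gene of syntenin, which links syndecans and CD63 to vesicle budding, had 43.1 ± 1.85 and 42.2 ± 1.15 FPKM (log2 fold change 0.07 ± 0.05, negative with library totals, FPKM and TPM, and called as TPM at -0.14; edgeR adjusted p = 0.221). RAB27A, which docks vesicles at the plasma membrane, was 2.62-fold lower (1.88 ± 0.155 against 0.667 ± 0.0802 FPKM), and the ESCRT gene CHMP2B was 1.97-fold lower. CHMP4B, with 67.7 ± 4.11 and 68.1 ± 1.83 FPKM, did not pass (adjusted p = 0.0873, and 0.0245 without DMSO replicate 3).

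The lysosomal membrane is the compartment of much CD63 protein. Of 20 tested genes of this membrane, 14 rose (beside 34.7% of all tested genes) and 6 fell (beside 35.4%). The list median was 0.34 log2, and as TPM 9 of the list rose. LAPTM4A was 1.28-fold higher, AP3S1, a subunit of the adaptor that carries CD63 to lysosomes, 1.38-fold higher, and the ion channel genes TMEM175 and MCOLN1 2.17-fold and 1.66-fold higher. LAMP1 was 1.21-fold higher, a call lost as TPM. LAMP2 had 21.9 ± 0.513 and 22.1 ± 0.540 FPKM and lay at the threshold (edgeR adjusted p = 0.0499), and its call was lost or its sign turned in 13 of 17 alternatives, among them leaving out DMSO replicate 2 or 3 or any 1 Japoflavone B library (adjusted p = 0.182, 0.0713, 0.134, 0.0527 and 0.0982). Those that fell included LAPTM4B (1.45-fold lower), the channel gene TPCN1 (1.62-fold lower) and another subunit of the same adaptor, AP3B1 (1.58-fold lower).

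Tetraspanins carry palmitate on cysteines next to the membrane, which is known to hold their complexes together. Genes that add or remove palmitate formed another list. Of 29 tested, 13 rose (beside 34.7% of all tested genes), 12 fell (beside 35.4%) and 4 did not pass. The list median was 0.21 log2, -0.01 as TPM and -0.09 with no filter on low counts. ZDHHC2, an enzyme known to palmitoylate CD9 and CD151, was 2.88-fold lower (13.7 ± 0.867 against 4.44 ± 0.102 FPKM; edgeR adjusted p = 4.20e-17), and ZDHHC6 was 2.12-fold lower. ZDHHC9, known for acting on RAS proteins, was 2.24-fold higher, the depalmitoylase gene ABHD17C 1.98-fold higher, ZDHHC5 1.38-fold higher and ZDHHC7 1.25-fold higher, the last call being lost as TPM. PPT1, a lysosomal thioesterase, was 1.28-fold lower. LYPLA1, a cytosolic one, was at -0.12 ± 0.05 log2, near the threshold (adjusted p = 0.0481, and 0.0548 to 0.25 where leaving out DMSO replicate 1 or 3 or any 1 Japoflavone B library ended the call).

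**Figure D5:**
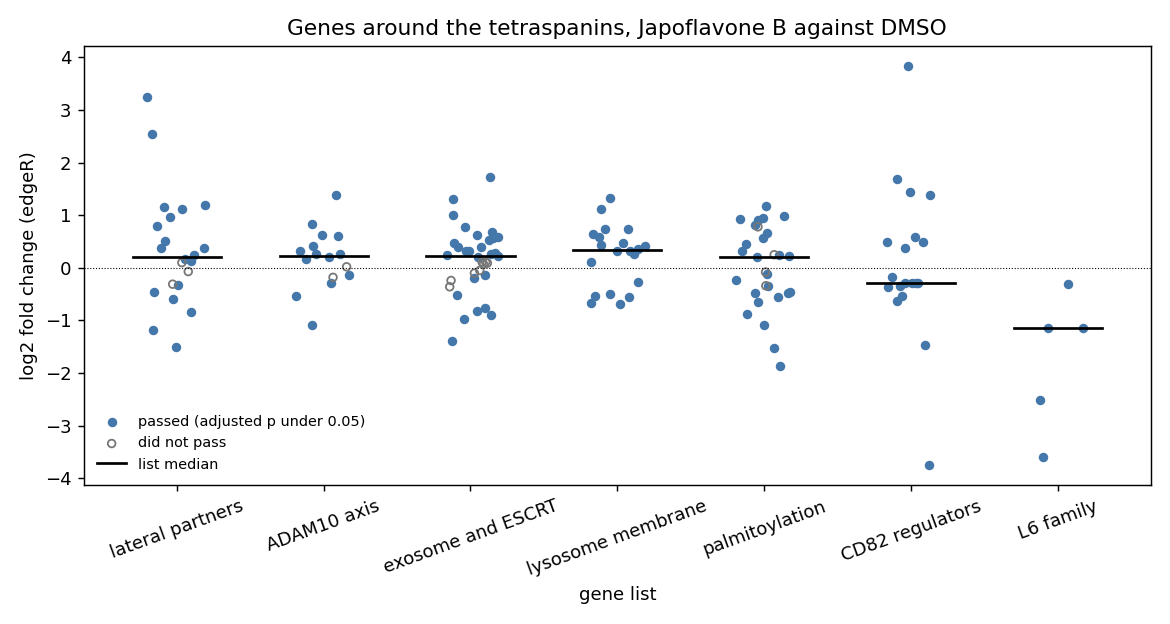
Each point is the log2 fold change of 1 tested gene in 7 lists around the tetraspanins, filled where the gene passed the test and open where it did not, with the list median as a black line. The medians of the first 5 lists lie between 0.21 and 0.34, that of the CD82 regulators at -0.28 and that of the L6 family at -1.15; the lowest point of the regulators is TP63 (-3.74), at 1.06 and 0.0700 FPKM.

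Factors reported to act on the CD82 gene or protein did not move one way. Of 19 tested, 8 rose (beside 34.7% of all tested genes) and 11 fell (beside 35.4%), with a median of -0.28 log2. The AP-1 genes JUNB and JUN rose 2.62-fold and 3.23-fold, and ATF3 rose from 0.977 ± 0.102 to 13.2 ± 0.460 FPKM (14.3-fold higher; edgeR adjusted p = 1.56e-22). SP1 was 1.42-fold higher, while HDAC1 was 1.22-fold lower and TFAP2C 1.55-fold lower.

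The L6 family shares the membrane layout of tetraspanins without being related in sequence. Its 5 tested genes all fell (median -1.15 log2), beside 35.4% of all tested genes. The call of TM4SF19 (edgeR adjusted p = 0.0428) was lost without DMSO replicate 2 or 3 or Japoflavone B replicate 2 or 3. TM4SF20 fell from 3.95 ± 0.567 to 0.300 ± 0.120 FPKM (12.1-fold lower; edgeR adjusted p = 4.75e-14). TM4SF18 was 5.74-fold lower and TM4SF4 2.21-fold lower. TM4SF1, the most abundant of them, went from 193 ± 7.35 to 145 ± 1.60 FPKM (1.24-fold lower).

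Genes whose profile over the 6 libraries was most like that of CD82 were looked for among 6906 others with at least 5 FPKM, by the root mean square difference of centred log2 CPM. The nearest were STC2, a secreted glycoprotein (difference 0.0898), TSC22D3, a glucocorticoid-induced gene (0.113), the transcription factor ATF3 (0.133), GADD45A, a growth arrest gene (0.139), and the cell cycle inhibitor gene CDKN1A (0.169). Their log2 fold changes were 3.58, 3.73, 3.84, 3.58 and 3.29 in that order. With 2 groups of 3 libraries the likeness rests mostly on the size of the group difference.

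The position and annotation of the members are given as description. The genes were chosen as tetraspanins, which are membrane proteins, so the membrane, exosome and integrin terms below are not independent of the choice. No share over all genes was computed for the chromosomes. Of the 10, 4 lie on chromosome 11 (CD82, CD81, CD151 and TSPAN4) and 3 on chromosome 12 (CD9, CD63 and TSPAN8). CD151 and TSPAN4 are neighbours on the plus strand with 2980 bases between them, and their log2 fold changes were 0.44 and 0.18. The nearest tetraspanin to CD82 is TSPAN18, 106106 bases downstream. It had 63, 38 and 31 counts after DMSO and 50, 52 and 43 after Japoflavone B and did not pass (log2 fold change 0.35 ± 0.26; edgeR adjusted p = 0.236). In the deposited annotation all 9 tested members carry the term integral component of plasma membrane, which 4.30% of tested genes have. CD63, CD81, CD82, CD9 and TSPAN3, 5 of the 9, carry extracellular exosome, which 10.8% have. CD151, CD81, CD9 and TSPAN4 carry integrin binding, which 0.622% have.

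Several members overlap a gene on the other strand, and the strand setting of the counting is not given in the sources used here, so such reads may not be separable. CD151 overlaps POLR2L, a subunit gene of RNA polymerases, which had 7381 summed counts after DMSO and 4765 after Japoflavone B, and CD63 overlaps CD63-AS1 with 417 and 155. The 2 unnamed genes on the strand opposite CD82 had 0 counts in all 6 libraries.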

How the data were processed

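The labels and the submitters' processing notes name poly(A) selection, cutadapt 1.9.1, HISAT2 2.0.1, HTSeq 0.6.1, DESeq2 and GRCh38, without roles. The authors deposited whole-number counts per gene and FPKM computed from them; per the file headers the exonic gene sizes, another deposited column, go with both. FPKM recomputed from the counts differed by at most 0.005.

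Counts were fitted with edgeR 4.0.16 in R 4.3.3 (quasi-likelihood, trimmed-mean scaling, group as the single term) over the 16082 genes that filterByExpr kept (minimum count 10, minimum total 15), and p-values were adjusted by Benjamini-Hochberg over all of them, with a threshold of 0.05. FPKM are means ± SD over n = 3 and are scaled by library totals, so their ratio differs from the fitted fold. Fold changes carry SE. No p is given for the 10 genes. The members and lists were chosen with earlier results of these data known. Named genes are the 10, each list's 5 most abundant tested genes, its 2 highest and 2 lowest fold changes at 1 FPKM or more, tetraspanins of at least 1 FPKM, and the 5 genes nearest CD82; others are said to be named after their values were seen or make up a small count. Some genes that this rule names are not reported here. Log2 CPM used a prior count of 2. Promoter windows are from RefSeq (GRCh38.p14). Libraries of a group differed by more than sampling noise (chi-square per degree of freedom 2.56 or more). The workflow was tested on simulated data. limma 3.58.1 and DESeq2 1.42.0 served as alternatives.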

Additional observations from a re-analysis of the deposited data

How the results depend on the processing

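Each result was recomputed under 17 alternatives: filtering by a mean of at least 2 FPKM or not at all, DESeq2 size factors, upper-quartile scaling, library totals, DESeq2 as the test, limma on log2 of FPKM + 1, FPKM + 0.1 and TPM + 1, the replicate number as a block, mitochondrial genes left out, and each library left out. Library totals moved the median gene by -0.10 log2 and TPM by -0.21, and higher genes were 49.5% of calls, 42.4% with library totals and 35.0% as TPM. As the 10 genes were chosen on this comparison and all alternatives reuse these libraries, their calls show only how they depend on processing. CD82, CD9, CD151 and TSPAN13 stayed called in all 17. Their log2 fold changes ran from 2.27 (FPKM + 1) to 3.69 for CD82 (3.61 to 3.69 when 1 library was left out), from 0.15 (TPM) to 0.40 for CD9, from 0.23 (TPM) to 0.49 for CD151 and from -1.51 (TPM) to -1.26 for TSPAN13. Of 75 genes followed, 57 kept direction and call in every alternative that tested them. Signs turned in library totals, FPKM + 0.1, FPKM + 1 and TPM for TSPAN3 (-0.01, -0.01, -0.01 and -0.13), TSPAN14 (-0.01, -0.02, -0.01 and -0.13), ADAM9 (-0.08, -0.08, -0.08 and -0.19) and SDCBP (-0.03, -0.03, -0.03 and -0.14), as TPM for TSPAN4 (-0.04), TSPAN9 (-0.05), APH1A (-0.05), CHMP4B (-0.10) and LAMP2 (-0.10), and for ADAM9 with the FPKM filter (-0.03); the cause was not tested. Of the 10 genes, 3 were higher and 2 lower as TPM. Among the other tetraspanins 2 were higher and 4 lower with the FPKM filter, where 8 were tested. The ADAM10 list had 6 higher in both FPKM fits and 5 as TPM, the exosome list 12 higher and 14 lower as TPM, and the lysosome list 9 higher as TPM. The replicate numbers showed no pairing, since the deviations for numbers 1, 2 and 3 correlated at 0.013, -0.004 and -0.045, and 1 of 6 libraries correlated best with its own number. With the replicate block, 5502 genes were higher and 5618 lower, against 5577 and 5686 without it, and LAMP2 (adjusted p = 0.0804), LYPLA1 (0.0582) and TM4SF19 (0.0547) were no longer called. Depth limits TSPAN8 and other genes of a few counts.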
